A study of Mus musculus with 4 samples.

Results

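The mitosis and kinetochore genes were 48 listed symbols whose products carry cells from the end of DNA synthesis through chromosome segregation and cytokinesis. All 48 were found once among the 21926 genes of the deposited UMI (unique molecular identifier) counts. They were followed in single-cell libraries of thymocytes from 1 WT and 1 *Eif4g2* cKO mouse, which the labels give as 5 weeks old and of the same batch. The WT mouse carried *Eif4g2* flox/flox alleles without Cre, and the cKO mouse carried the same alleles with *CD4*-Cre, a transgene that acts from the CD4 CD8 double-positive (DP) stage onwards, so that earlier cells keep the gene. Both mice therefore carried loxP sites, and only the cKO mouse carried Cre. With 1 mouse per genotype the differences have no replicate check, no test was made, and all intervals are 95% intervals that cover counting error only.

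After the filter, 6012 WT cells with 18352386 UMIs and 4335 cKO cells with 18056277 UMIs remained. Cells had a median depth of 1734 (WT) and 2140 UMIs (cKO), and 4.39% of WT and 9.67% of cKO cells held over 10000 UMIs. From the Y chromosome, *Kdm5d*, *Uty* and *Eif2s3y* together had 2542 UMIs in WT and 1 UMI in cKO, which goes against the label female of the WT mouse, so that sex and genotype cannot be told apart. *Eif4g2* had 4089 UMIs in WT and 4941 in cKO, and since the place of the deleted part relative to the 3′ tag is not given in the sources used here, these counts do not check the deletion. The names of 1055 barcodes occurred in both libraries, but these are running numbers and not DNA barcodes. Summed markers of B, myeloid and dendritic, and erythroid cells were lower in cKO, most of all the 6 erythroid markers (13798 CPM in WT, 844 in cKO). CPM are counts scaled to 1e+06 UMIs of the library or class of cells.

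Entry into mitosis is driven by Cdk1 bound to cyclins A and B. The kinetochore, built on centromeres marked by the histone variant CENP-A, ties each chromosome to spindle microtubules, and the checkpoint proteins hold the anaphase-promoting complex (APC/C) until all chromosomes are attached. Many of these genes are switched on together late in the cycle by the MuvB complexes with B-Myb and FoxM1 through the cell cycle genes homology region (CHR), a short element near the transcription start, often with CCAAT boxes upstream of it. In the thymus, cells divide after β-selection as they pass from the CD4 CD8 double-negative (DN) to the early DP stage, small DP cells are at rest, and single-positive (SP) cells divide again before they leave.

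RefSeq promoter windows on GRCm38.p6, from 250 bases before to 50 bases after the start, were at hand for 40 of the 48 genes, with 43 windows. *Ccna2*, *Incenp*, *Smc4*, *Tpx2*, *Aurkb*, *Kif20a*, *Spc24* and *Pbk* had no entry. The CHR, searched as TTTGAA on both strands (TTCAAA on the other strand), was present in 34 of 43 windows of these genes (79.1%), against 17.9% of all 32851 windows. It started within 40 bases of the transcription start in 29 of the 43 windows (67.4%), against 4.20% of all windows. CCAAT, on both strands, was present in 34 of 43 windows (79.1%) against 37.4% of all, and TTCCCGC, an E2F-like site, in 2 of 43 (4.65%) against 4.60% of all. Overlaps between different motifs were not removed. Of 64 windows of other G2/M genes, 51.6% held the CHR, 65.6% CCAAT and 14.1% TTCCCGC. In the windows of 56 S-phase genes used to call S phase, of which 43 were in the table, the order was the other way round, with the CHR in 10.4% and TTCCCGC in 43.8% of 48 windows. These are matches of letters, not measured binding.

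The 10 genes in which the element lies wholly before the RefSeq start and within 50 bases of it are printed. They show how the same 6 letters recur beside otherwise unlike sequence. Starts in another annotation, GENCODE M21, can differ. Those of *Bub3* (131560222) and *Kif22* (127042471), for example, place the printed bases inside the gene. Each line holds 30 bases on the gene's strand, 5′ to 3′, on GRCm38.p6, with the CHR in capitals.
Ube2c (chr2:164769888-164769917, plus strand): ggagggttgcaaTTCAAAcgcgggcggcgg
Cdc20 (chr4:118437344-118437373, minus strand): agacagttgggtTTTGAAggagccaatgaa
Prc1 (chr7:80294434-80294463, plus strand): cctctggctcggTTTGAAttccgcggggtc
Kif22 (chr7:127042421-127042450, minus strand): ggggccccggtaaTTCAAAagagagaagcg
Bub3 (chr7:131560315-131560344, plus strand): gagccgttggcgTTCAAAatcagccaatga
Cenpn (chr8:116921710-116921739, plus strand): gcccgagcggccattggcggcTTCAAAagc
Cenpw (chr10:30200548-30200577, minus strand): tccggcggccaaTTCAAAtcgaccactcgg
Cdk1 (chr10:69352913-69352942, minus strand): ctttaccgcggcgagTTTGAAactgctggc
Top2a (chr11:99024195-99024224, minus strand): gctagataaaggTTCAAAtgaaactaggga
Kif11 (chr19:37376351-37376380, plus strand): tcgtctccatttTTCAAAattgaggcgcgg

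TTTGAA and TTCAAA both occur among them, so the element is found in both orientations. In *Cdc20* and *Bub3* a ccaat, and in *Cenpn* an attgg, lies within the same 30 bases, and in *Cenpw* a CCAAT shares its last base with the CHR. The windows of *Cdk1*, *Top2a* and *Kif22* each held a further CHR farther upstream. Of the 40 genes in the table, 9 held neither TTTGAA nor TTCAAA in the window, among them *Birc5*, *Bub1* and *Ccnb1*. Other forms of the element were not searched. The 27 genes with a CHR that starts within 40 bases of the start had a median log2 ratio of G2/M-like to S-like cells of 1.35, and the other 13 of 1.26, with ranges that overlapped (0.25 to 2.36 and 0.44 to 2.28).

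**Figure D1:**
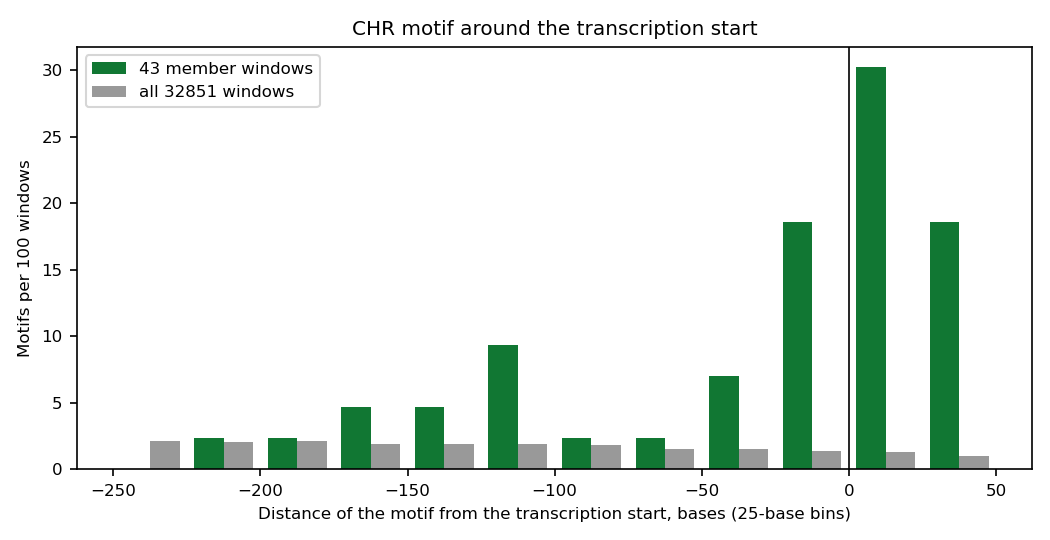
Number of CHR motifs (TTTGAA on either strand) per 100 promoter windows (y axis) in 25-base bins of distance from the transcription start (x axis, bases), for the 43 windows of the mitosis genes (green) and all 32851 windows (grey). The genes' bars are tallest in the bin from 0 to 25 bases, with 30.2 motifs per 100 windows against 1.31 over all windows.

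Over all cells, the 48 genes together took 4879 CPM (4847–4911) in the WT and 6148 CPM (6112–6184) in the cKO library, 1.26-fold more in cKO. The median log2 ratio of cKO to WT was 0.34 over the 48 genes, and -0.33 over all 10584 genes with at least 50 UMIs in both libraries together. In cKO 16 of the 48 (33.3%) were higher by over 0.5, against 5.56% of all genes, and 1 (2.08%) was lower by over 0.5, against 40.4%. The ratio was above 0 for 38 and below 0 for 10. Scaling by median-of-ratios size factors moved every ratio up by 0.39, which left 46 above 0 and *Anln* and *Cenpe* below it. At that scaling the median over all genes was 0.059. How many of all genes lay above 0 was not counted at either scaling. The counting interval lay above 0 for 32 of the 48 and below 0 for 6, and the same counts over all genes were not made. A level over the whole library mixes the share of dividing cells with the level per dividing cell, and the 2 are taken apart further on.

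The group of cyclins and Cdk1 had the highest median ratio of the roles, 0.72. *Cdk1*, the kinase that starts mitosis, stood at 151 CPM (145–156) in WT against 258 (251–266) in cKO cells, a log2 ratio of 0.78 (0.71 to 0.84). For *Ccna2*, whose cyclin A2 acts in S phase and G2, the level was 95.8 CPM (91.4–100.4) in WT against 172 (166–178) in cKO cells, and its ratio of 0.84 (0.76 to 0.93) was the highest of the 48. *Ccnb1*, the main mitotic cyclin, was at 67.3 CPM (63.6–71.2) in WT against 111 (106–116) in cKO cells (0.72 (0.62 to 0.82) on the log2 scale). Of this group of 5, *Ccnb2* had the lowest ratio, 0.29 (0.22 to 0.37), and *Cdkn3*, a phosphatase of Cdk proteins, had 0.53 (0.40 to 0.66). So 4 of the 5 lay past 0.5.

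The 11 centromere and kinetochore genes were split. *Cenpa*, the centromeric histone, was at 196 CPM (189.5–202) in WT against 247 (239.7–254) in cKO cells, a log2 ratio of 0.33 (0.27 to 0.40). *Spc25* (0.70 (0.59 to 0.81)), *Knstrn* (0.68 (0.56 to 0.81)) and *Cenpm* (0.58 (0.47 to 0.70)) were past 0.5 upwards. *Spc25* and *Ndc80* code for subunits of the same 4-part NDC80 complex that grips microtubules, with *Spc24* and *Nuf2*. The other 3 subunits had ratios of 0.39 (0.33 to 0.46) for *Spc24*, 0.47 (0.30 to 0.63) for *Nuf2* and 0.11 (-0.036 to 0.26) for *Ndc80*, so transcripts of this complex did not share a ratio. *Ndc80* itself stood at 38.9 CPM (36.1–41.9) in WT against 42.1 (39.2–45.2) in cKO cells. *Cenpe*, the kinetochore kinesin, went the other way, at 56.1 CPM (52.7–59.7) in WT against 42.8 (39.8–45.9) in cKO cells (-0.39 (-0.53 to -0.26)). So did *Cenpf*, a large outer kinetochore protein, at 81.1 CPM (77.1–85.4) in WT against 65.6 (61.9–69.4) in cKO cells (-0.31 (-0.42 to -0.20)).

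In the chromosomal passenger complex, which corrects faulty attachments, 3 of 4 genes lay past 0.5. *Birc5*, which codes for survivin, was at 268 CPM (261–276) in WT against 409 (400.2–419) in cKO cells, a log2 ratio of 0.61 (0.56 to 0.66). The kinase gene *Aurkb* was at 49.0 CPM (45.8–52.3) in WT against 73.0 (69.1–77.0) in cKO cells (0.58 (0.45 to 0.70)), and *Cdca8*, which codes for borealin, had a ratio of 0.61 (0.53 to 0.69). The scaffold gene *Incenp* had 0.13 (0.023 to 0.24).

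Among the 5 checkpoint genes only *Mad2l1* was past 0.5. Its product, Mad2, binds and holds Cdc20, and the transcript was at 48.9 CPM (45.8–52.2) in WT against 85.8 (81.6–90.2) in cKO cells (0.81 (0.69 to 0.93)). *Bub3*, which brings Bub1 and BubR1 to kinetochores, stood at 213 CPM (207–220.2) in WT against 271 (264–279) in cKO cells (0.35 (0.29 to 0.41)). The kinase gene *Bub1* was at 15.1 CPM (13.4–17.0) in WT against 15.4 (13.6–17.3) in cKO cells, and its ratio of 0.023 (-0.22 to 0.27) did not differ from 0 beyond counting error. *Bub1b* (BubR1) had 0.34 (0.20 to 0.48) and *Ttk* (Mps1) 0.21 (-0.032 to 0.45).

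Of the other mitotic kinases, *Plk1*, needed for bipolar spindles and mitotic exit, was at 113 CPM (108–118) in WT against 107 (102–112) in cKO cells (-0.079 (-0.17 to 0.011)). *Pbk*, a kinase active in mitosis, had 65.0 CPM (61.4–68.8) in WT against 108 (103–113) in cKO cells (0.73 (0.63 to 0.84)), and *Aurka*, which acts at spindle poles, had a ratio of 0.57 (0.44 to 0.70). The 9 kinesin and spindle genes had ratios from -0.32 (*Kif23*) to 0.31 (*Nusap1*), and none was past 0.5 in either direction. *Kif11*, the motor that pushes spindle poles apart, was at 84.7 CPM (80.5–89.0) in WT against 77.5 (73.5–81.6) in cKO cells (-0.13 (-0.23 to -0.023)). *Kif23*, a motor of the central spindle, was at 74.4 CPM (70.5–78.4) in WT against 59.8 (56.2–63.4) in cKO cells (-0.32 (-0.43 to -0.20)).

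The 3 APC/C partners all had ratios above 0. *Ube2c*, the ubiquitin-conjugating enzyme of the APC/C, stood at 393 CPM (384–402) in WT against 609 (598–621) in cKO cells (0.63 (0.59 to 0.68)), and *Cdc20*, its activator, at 114 CPM (109–119) in WT against 165 (159–171) in cKO cells (0.54 (0.46 to 0.62)). *Cdca3* had a ratio of 0.42 (0.36 to 0.49). Among the cytokinesis genes, *Anln*, which codes for the contractile ring protein anillin, was the only one of the 48 past 0.5 downwards, at 30.9 CPM (28.4–33.5) in WT against 21.5 (19.5–23.8) in cKO cells (-0.52 (-0.71 to -0.33)), and by median-of-ratios scaling it was at -0.13. *Racgap1* had 0.51 (0.40 to 0.62), *Ect2* -0.065 (-0.24 to 0.11) and *Prc1* -0.00076 (-0.11 to 0.11). Racgap1 and Ect2 proteins work together to place the cleavage furrow, and their transcripts differed in ratio beyond counting error.

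The condensin gene *Smc4* was at 475 CPM (465–485) in WT against 386 (377–395) in cKO cells (-0.30 (-0.35 to -0.25)), and *Smc2*, whose product pairs with Smc4, had a ratio of 0.054 (-0.045 to 0.15). *Top2a*, the topoisomerase that untangles sister chromatids, was at 329.9 CPM (322–338) in WT against 357 (349–366) in cKO cells (0.12 (0.064 to 0.17)). The proliferation marker *Mki67* was at 111 CPM (106–116) in WT against 141 (136–147) in cKO cells (0.35 (0.27 to 0.44)). Just inside the bound of 0.5 lay *Racgap1* at 0.51, and just outside it *Nuf2* at 0.47.

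**Figure D2:**
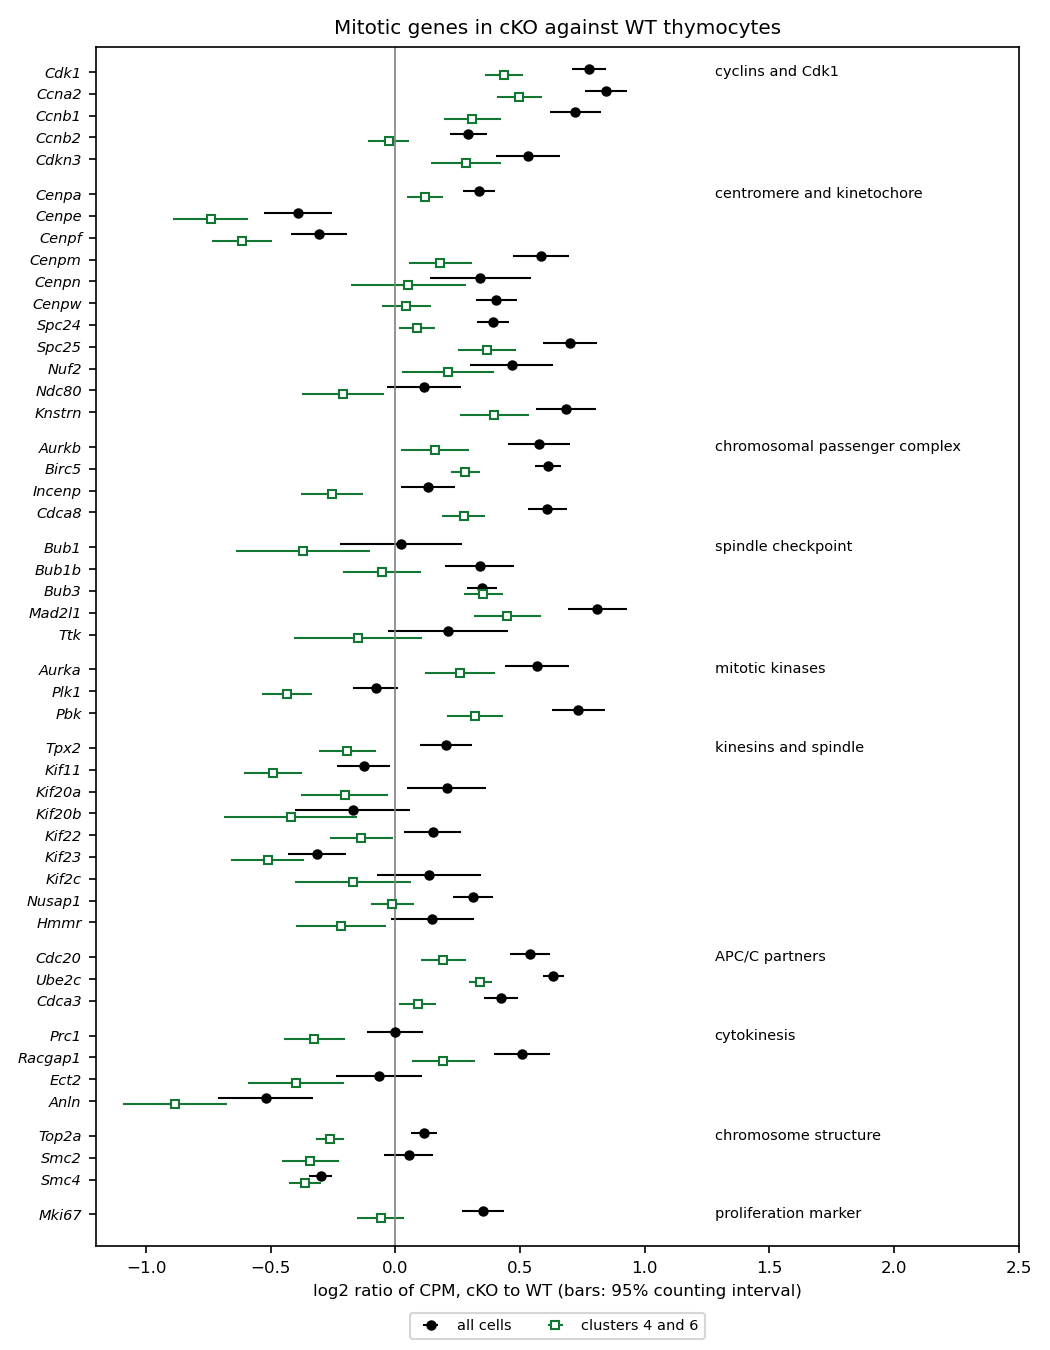
Log2 ratio of CPM, cKO to WT, for each of the 48 genes (rows, grouped by role), over all cells (black circles) and within clusters 4 and 6, the clusters led by mitosis genes (green squares), with 95% counting intervals as bars. Over all cells 38 of 48 ratios lie above 0 (46 by median-of-ratios scaling) and within clusters 4 and 6 23 of 48 (35 by median-of-ratios scaling). The same counts over all genes were not made.

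Cell cycle states were called from genes outside the 48. Each cell was thinned to 1000 UMIs and called S-like with at least 3 UMIs of 56 S-phase genes, G2/M-like with at least 3 UMIs of 70 other G2/M genes, by the larger score where both applied, and not cycling otherwise. G2/M-like cells were 1052 of 6012 cells (17.5%, 16.5–18.5) in WT and 968 of 4335 cells (22.3%, 21.1–23.6) in cKO. S-like cells were 1041 of 6012 cells (17.3%, 16.4–18.3) in WT and 1172 of 4335 cells (27%, 25.7–28.4) in cKO. Both states thus held a larger share of the cKO library, and this was so under each of the other settings tried. The shares themselves ranged widely with the setting, for G2/M-like cells from 8.73% to 27.9% in WT and from 11.9% to 31.6% in cKO. Cells over 10000 UMIs made up 7.89% of G2/M-like cells in WT and 14.5% in cKO, and doublets were not removed. Part of the calls rested on *Hmgb2*, which gave 45.6% of the UMIs of the G2/M list in WT and 53.0% in cKO.

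The 48 genes marked these states although none of them was used to call them. In the thinned cells, G2/M-like cells held a mean of 9.3 UMIs of the 48 genes in WT and 10.5 in cKO. S-like cells held 3.39 and 3.89, and non-cycling cells 1.06 and 1.04. At least 10 UMIs of the 48 were found in 42.8% of WT and 49.1% of cKO G2/M-like cells, while the highest number in any non-cycling cell was 9 in WT and 8 in cKO. The G2/M-like call was not uniform. In clusters 4, 6 and 7 the 509 WT and 621 cKO G2/M-like cells had medians of 16 and 15 UMIs of the 48. The 387 WT and 256 cKO G2/M-like cells in DP-like clusters had a median of 1 in both libraries, as did non-cycling DP-like cells. Their means were higher, at 1.75 (WT) and 1.71 (cKO) against 1.13 and 1.05 in non-cycling DP-like cells.

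All 48 genes were higher in G2/M-like than in S-like cells of both libraries, each with a counting interval above 0. How many of all genes had such intervals was not counted here. By over 0.5 (log2), 45 of the 48 were higher in WT and 46 in cKO, against 13.9% and 16.0% of all genes. The median log2 ratio of G2/M-like to S-like cells was 1.24 in WT and 1.20 in cKO, against 0.11 and 0.14 over all genes. Against non-cycling cells the median was 4.80 in WT and 4.54 in cKO, and all but *Smc4* (47 of the 48) were above 1 in each library, against 6.77% and 6.30% of all genes. The order of the 48 by the ratio of G2/M-like to S-like cells was alike in both libraries, with a Pearson r of 0.93 and a Spearman rho of 0.93 over 48 genes that share the same cells within a library.

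At the late end of this order stood *Ube2c*, with 1255 CPM in G2/M-like, 216 CPM in S-like and 33.1 CPM in non-cycling cells of the WT library and 1497 CPM in G2/M-like, 330.0 CPM in S-like and 47.1 CPM in non-cycling cells of the cKO library. The log2 ratio of G2/M-like to S-like cells was 2.54 in WT and 2.18 in cKO for *Ube2c*, 2.48 in WT and 2.08 in cKO for *Cdkn3* and 2.41 in WT and 1.99 in cKO for *Cenpf*. It was 2.02 in WT and 2.10 in cKO for *Cenpa* and 2.05 in WT and 2.02 in cKO for *Cdc20*. *Cenpa* had 549 CPM in G2/M-like, 136 CPM in S-like and 40.02 CPM in non-cycling cells in WT and 583 CPM in G2/M-like, 136 CPM in S-like and 43.9 CPM in non-cycling cells in cKO, so its transcript was most abundant in the G2/M-like cells of either library. *Cdc20* had 335 CPM in G2/M-like, 80.8 CPM in S-like and 12.6 CPM in non-cycling cells in WT and 389 CPM in G2/M-like, 95.9 CPM in S-like and 20.4 CPM in non-cycling cells in cKO. *Hmmr* (2.16 in WT and 1.64 in cKO), *Aurka* (1.92 in WT and 1.73 in cKO) and *Ccnb1* (1.83 in WT and 1.79 in cKO) came next.

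At the early end were *Cenpw* and *Cenpm*, which code for inner kinetochore proteins of the centromere, the condensin genes *Smc2* and *Smc4*, and *Mad2l1*. *Cenpw* had 207 CPM in G2/M-like, 182 CPM in S-like and 19.0 CPM in non-cycling cells in WT and 222 CPM in G2/M-like, 179 CPM in S-like and 28.8 CPM in non-cycling cells in cKO, a log2 ratio of 0.18 in WT and 0.31 in cKO. The ratio was 0.48 in WT and 0.40 in cKO for *Cenpm*, 0.39 in WT and 0.52 in cKO for *Smc2*, 0.53 in WT and 0.60 in cKO for *Smc4* and 0.67 in WT and 0.78 in cKO for *Mad2l1*. These 5 were thus nearly as high in S-like as in G2/M-like cells when set beside *Ube2c*. By role, the median ratio was lowest for the 3 chromosome structure genes (0.57, mean of the libraries) and highest for the 3 APC/C partners (2.04), with 1.05 for the 11 centromere and kinetochore genes, 1.15 for the passenger complex, 1.35 for kinesins and spindle and 1.66 for cyclins and Cdk1. The kinetochore genes spanned nearly the whole order, from 0.25 for *Cenpw* to 2.20 for *Cenpf*.

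The remaining genes of the fixed list lay between. *Cdk1* had 387 CPM in G2/M-like, 160.3 CPM in S-like and 12.3 CPM in non-cycling cells in WT and 498 CPM in G2/M-like, 234 CPM in S-like and 18.3 CPM in non-cycling cells in cKO. *Birc5* had 699 CPM in G2/M-like, 287 CPM in S-like and 14.7 CPM in non-cycling cells in WT and 826 CPM in G2/M-like, 349.9 CPM in S-like and 23.9 CPM in non-cycling cells in cKO. *Top2a* had 799 CPM in G2/M-like, 395 CPM in S-like and 22.3 CPM in non-cycling cells in WT and 646 CPM in G2/M-like, 351 CPM in S-like and 30.5 CPM in non-cycling cells in cKO, and it was lower in G2/M-like cKO cells while *Cdk1* and *Birc5* were higher. For *Mki67* the ratio of G2/M-like to S-like cells was 1.05 in WT and 0.92 in cKO, for *Bub1* 0.91 in WT and 0.96 in cKO, for *Ndc80* 1.09 in WT and 0.83 in cKO, for *Kif11* 1.12 in WT and 1.05 in cKO, for *Aurkb* 1.03 in WT and 0.74 in cKO and for *Plk1* 1.52 in WT and 1.40 in cKO.

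A few genes were also present outside dividing cells. *Smc4* had 656 CPM in G2/M-like, 453 CPM in S-like and 389 CPM in non-cycling cells in WT and 514 CPM in G2/M-like, 339 CPM in S-like and 316 CPM in non-cycling cells in cKO, and its log2 ratio of G2/M-like to non-cycling cells was only 0.75 in WT and 0.70 in cKO. *Bub3* had 381 CPM in G2/M-like, 178 CPM in S-like and 144 CPM in non-cycling cells in WT and 446 CPM in G2/M-like, 222 CPM in S-like and 151 CPM in non-cycling cells in cKO, a ratio of 1.40 in WT and 1.56 in cKO. The next smallest ratios were 2.10 in WT and 1.62 in cKO for *Kif23*, 3.28 in WT and 2.75 in cKO for *Smc2* and 3.44 in WT and 2.95 in cKO for *Cenpw*. Of all UMIs of the 48 genes in non-cycling cells, *Smc4* made up 39.0% in WT and 30.7% in cKO, and *Bub3* 14.5% and 14.7%, against 5.49% and 4.24% for *Smc4* in G2/M-like cells. At the other end, *Ttk* had 3 WT and 4 cKO UMIs in all non-cycling cells. The last 1000 bases of *Bub3*, and of *Ccna2*, *Cdc20*, *Kif20a*, *Prc1* and *Ube2c*, overlap a gene on the other strand in GENCODE M21, and whether counting used strand is not given in the sources used here, so reads of these pairs cannot be told apart.

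**Figure D3:**
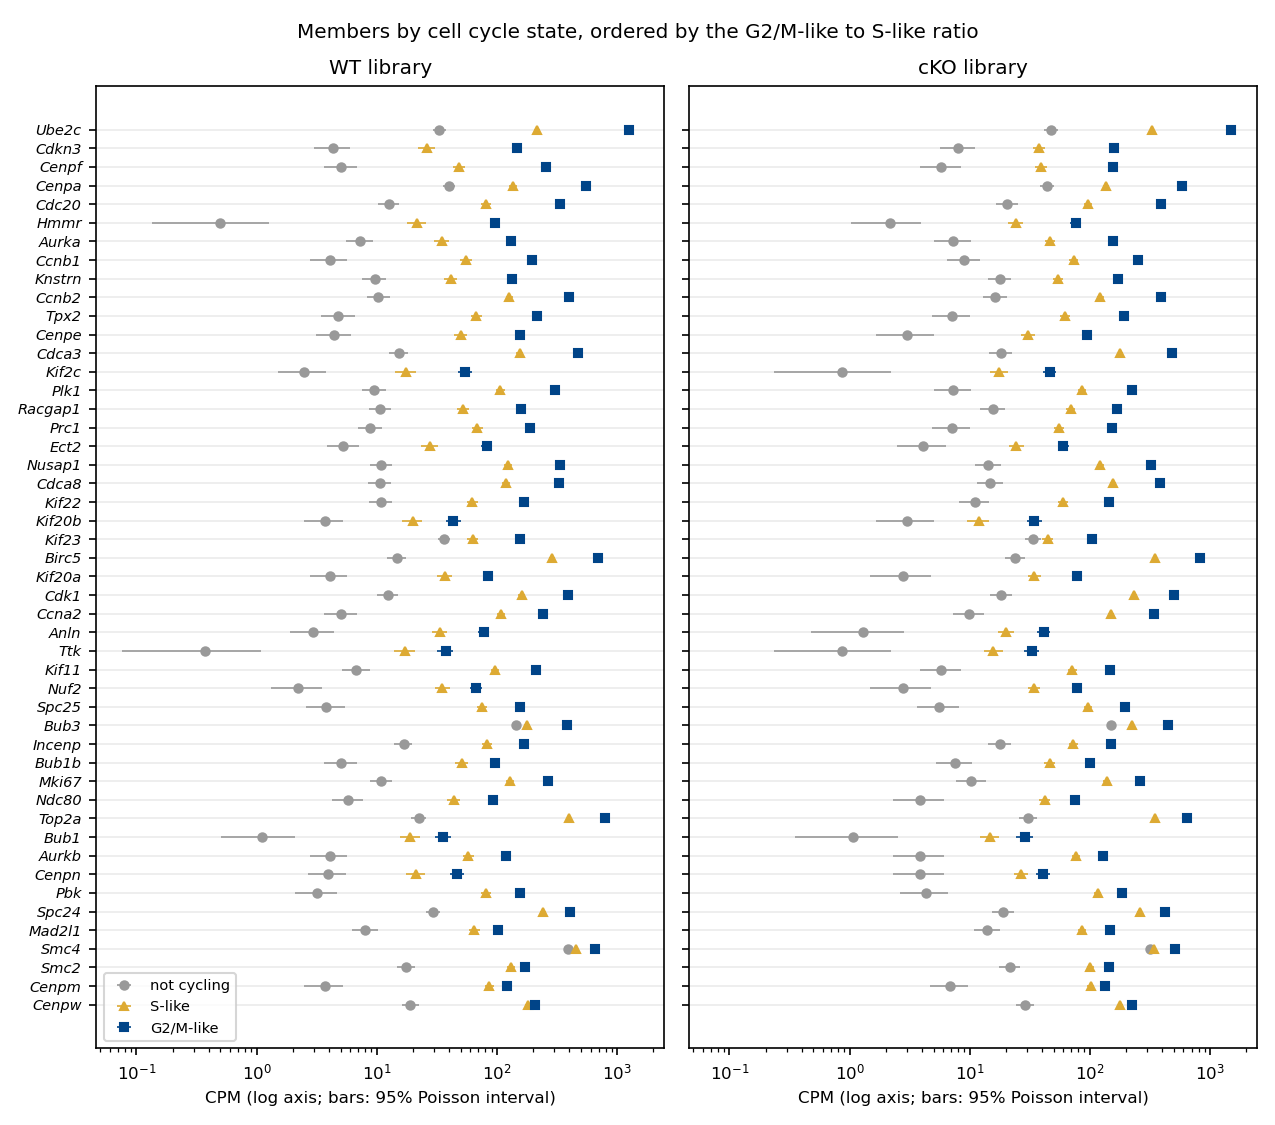
CPM (x axis, log scale) of each of the 48 genes (rows, ordered by the ratio of G2/M-like to S-like cells) in non-cycling (grey circles), S-like (yellow triangles) and G2/M-like cells (blue squares) of the WT (left) and cKO library (right), with 95% Poisson intervals. *Smc4* and *Bub3* are the rows in which the grey point comes closest to the blue one, and *Ube2c*, at the top, has the widest gap between S-like and G2/M-like cells.

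In G2/M-like cells the 48 genes summed to 11944 CPM (11844–12045) in WT and 12118 CPM (12026–12211) in cKO, and the median log2 ratio was -0.04, against -0.28 over all genes. The single gene past 0.5 upwards was *Mad2l1* (2.08% of the 48, 4.39% of all genes), and 5 were past 0.5 downwards (10.4%, against 36.1%), namely *Anln*, *Cenpf*, *Cenpe*, *Kif23* and *Kif11*. By median-of-ratios scaling, which moved these ratios up by 0.31, 14 were higher and 1 lower. The shares of all genes past 0.5 were not counted at that scaling, so these counts have no background. In S-like cells 4 were higher (8.33%, against 3.19%) and 4 lower (8.33%, against 37.5%), with a median of -0.0068. In non-cycling cells 39 of the 48 reached 50 UMIs over both libraries, of which 16 were higher (41.0%, against 8.69%) and 3 lower (7.69%, against 29.8%) by over 0.5. Of these 39, 15 and 2 had intervals above and below 0, and all genes were not counted in this way. The 48 genes summed there to 996 CPM in WT and 1029 CPM in cKO.

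Clustering was done on genes other than the 48, the state lists, histones and *Eif4g2*. Even so, 2 clusters, 4 and 6, were led by *Ube2c*, *Pclaf* and *Birc5*, and carried no stage name because no stage marker was among their 10 leading genes, a condition added after the clusters were seen. They held 870 WT cells (14.5%) and 1072 cKO cells (24.7%). These deeper cells gave 37.0% (WT) and 43.5% (cKO) of the UMIs of all genes, and 79.3% and 76.4% of those of the 48 genes. Cluster 4 was mostly WT (806 WT, 82 cKO cells) and cluster 6 mostly cKO (64 WT, 990 cKO cells), so the values of the 2 libraries come from different clusters. *Rag1*, the DP recombinase, was at 159 CPM in WT cells of cluster 4 and 193 CPM in cKO cells of cluster 6, against 989 and 1024 CPM in DP-like cells. *Cd8b1* was at 1187 and 1664 CPM, and *Il2ra*, a DN marker, at 5.47 and 3.14 CPM, against 348 and 301 CPM in DN-like cells.

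In clusters 4 and 6 the 48 genes summed to 10449 CPM (interval 10373–10526) in WT and 10804 CPM (interval 10732–10878) in cKO. None was higher in cKO by over 0.5, against 4.14% of all genes, and 4 (8.33%) were lower, against 31.8%. The median was -0.02, against -0.23 over all genes, and median-of-ratios scaling moved every ratio up by 0.26, which turned the split from 23 above and 25 below 0 to 35 and 13, with 13 higher and 1 lower by over 0.5. Counting intervals lay above 0 for 21 genes and below 0 for 19, so ratios beyond counting error lay on both sides of 0. How many of all genes had such intervals was not counted. Shares of all genes above 0 or past 0.5 at median-of-ratios scaling were not counted either, so those counts have no background. *Anln* was at 73.1 CPM in WT against 39.6 in cKO (-0.88 (-1.09 to -0.68)), *Cenpe* at 131 CPM in WT against 78.6 in cKO (-0.74 (-0.89 to -0.59)), *Cenpf* at 189.9 CPM in WT against 124 in cKO (-0.62 (-0.74 to -0.49)) and *Kif23* at 127 CPM in WT against 88.9 in cKO (-0.51 (-0.66 to -0.37)). The ratio of *Kif11* was -0.49 (-0.61 to -0.38) and that of *Plk1* -0.43 (-0.53 to -0.33). At the upper end *Ccna2* was at 228 CPM in WT against 321 in cKO (0.50 (0.41 to 0.59)), *Mad2l1* at 108 CPM in WT against 148 in cKO (0.45 (0.31 to 0.58)) and *Cdk1* at 344 CPM in WT against 465 in cKO (0.44 (0.36 to 0.51)). *Mki67* (-0.059 (-0.15 to 0.035)) and *Ccnb2* (-0.028 (-0.11 to 0.056)) had intervals that held 0.

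Genes with a longer span along the chromosome had lower ratios. Over all genes in clusters 4 and 6, the median log2 ratio of cKO to WT was -0.0085 for 3875 genes that span up to 20 kb, -0.26 for 2630 genes of 20 to 50 kb and -0.66 for 2393 genes over 50 kb (GENCODE M21). Among the mitosis genes the medians were 0.19 for the 23 up to 20 kb, -0.21 for the 21 of 20 to 50 kb and -0.58 for the 4 over 50 kb (*Anln*, *Cenpe*, *Ect2* and *Kif20b*). *Anln* spans 57.2 kb (chromosome 9, 22332012 to 22389188) and *Cenpe* 61.1 kb (chromosome 3, 135212537 to 135273611), while *Ccna2* spans 7.29 kb (chromosome 3, 36564865 to 36572150) and *Mad2l1* 11.8 kb (chromosome 6, 66535390 to 66547220), all on GRCm38. Over the 48 genes the ratio in these clusters and the log10 span had a Pearson r of -0.62 and a Spearman rho of -0.59. All 48 points come from the same pair of libraries. *Plk1*, of 10.4 kb, lay well below other genes of its length, and *Knstrn*, in the class of 20 to 50 kb, well above. The same order was seen over all cells, with member medians of 0.54, 0.13 and -0.28. The part of gene span in the ratios of single genes was not tested.

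**Figure D4:**
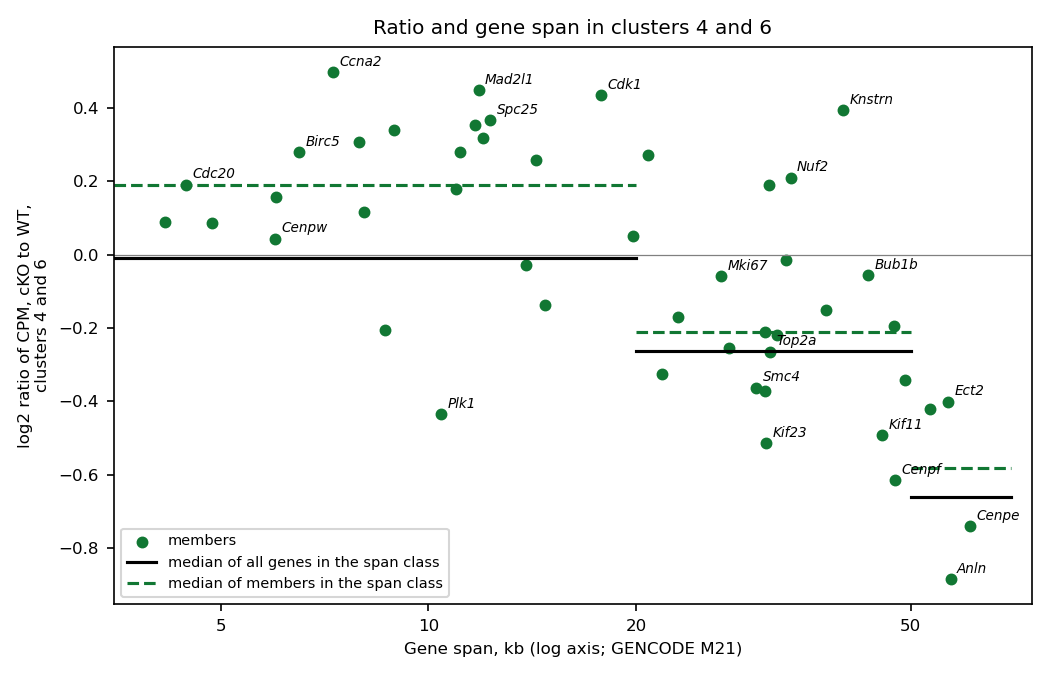
Log2 ratio of CPM, cKO to WT, within clusters 4 and 6 (y axis) against gene span in kb (x axis, log scale) for the 48 genes (green points), with the median of all genes (black lines) and of the 48 (dashed green lines) up to 20 kb, from 20 to 50 kb and over 50 kb. Both medians step down with span, and the 4 genes over 50 kb lie between -0.88 and -0.40; median-of-ratios scaling moves all points up by 0.26.

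Along thymocyte stages the sum of the 48 genes was low outside clusters 4 and 6. DN-like cells had 2201 CPM (interval 2094–2312) in 104 WT cells and 2698 CPM (interval 2592–2807) in 129 cKO cells. In DP-like cells it was 1248 CPM (interval 1218–1278) in 3347 WT cells, most of them in clusters 0 and 3, and 1209.8 CPM (interval 1174–1247) in 2114 cKO cells, most of them in cluster 11. Early post-selection-like cells were lowest among the T lineage stages from DN-like to mature SP-like, at 1082 CPM (interval 1029.5–1137) and 1052 CPM (interval 989–1118), with intervals below those of the DP-like cells of the same library. Much of such low sums can come from 2 genes. In non-cycling cells *Smc4* gave 39.0% (WT) and 30.7% (cKO) of the sum, and *Bub3* 14.5% and 14.7%. The order of the stages therefore need not hold for the other genes. Mature SP-like cells had 2136 CPM (interval 2083–2189.7) in WT and 2038 CPM (interval 1958–2120.0) in cKO. The intervals of WT and cKO overlapped in DP-like, early post-selection-like and mature SP-like cells, and did not in DN-like cells, a stage before *CD4*-Cre acts, where cKO was higher. Without cells over 10000 UMIs the DN-like values were 1357 CPM in WT and 1473 CPM in cKO, with overlapping intervals, and the mature SP-like values 1784 and 1347 CPM, with intervals that did not overlap. At a clustering resolution of 1.6 the order in mature SP-like cells turned, to 2197 CPM in WT and 2487 CPM in cKO, and DP-like cells had 1262 and 1162 CPM, and neither pair of intervals overlapped.

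The stages differed in how many cells carried the transcripts. At least 5 UMIs of the 48 in 1000 were found in 79.9% (77.1–82.5) of WT and 77.5% (74.9–80) of cKO cells of clusters 4 and 6. In DP-like cells the share was 2.3% (1.82–2.87) in WT and 1.84% (1.32–2.51) in cKO, and in mature SP-like cells 7.41% (5.61–9.55) and 5.78% (3.34–9.21). In DN-like cells it was 6.73% (2.75–13.4) and 10.9% (6.06–17.5). Cluster 7, led by the growth genes *Srm* and *Dctpp1* and by *Pclaf*, held 47 WT and 221 cKO cells, with medians of 5591 and 15120.0 UMIs per cell. Of its cells 38.3% (24.5–53.6) in WT and 37.1% (30.7–43.8) in cKO carried at least 5 UMIs of the 48, and its sum was 3971 CPM (interval 3789–4160.3) and 4596 CPM (interval 4524–4668). It gave 1.99% of the UMIs of the 48 genes in WT and 14.3% in cKO. Of the UMIs of all genes it held 447957 of 18352386 in WT and 3461826 of 18056277 in cKO. Its sum was thus below that of all cells (4879 CPM in WT and 6148 CPM in cKO). Without cluster 7, 18 genes were higher by over 0.5 and none lower over all other cells. In those cells the median over all genes was -0.28, and the share of all genes past 0.5 was not counted.

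**Figure D5:**
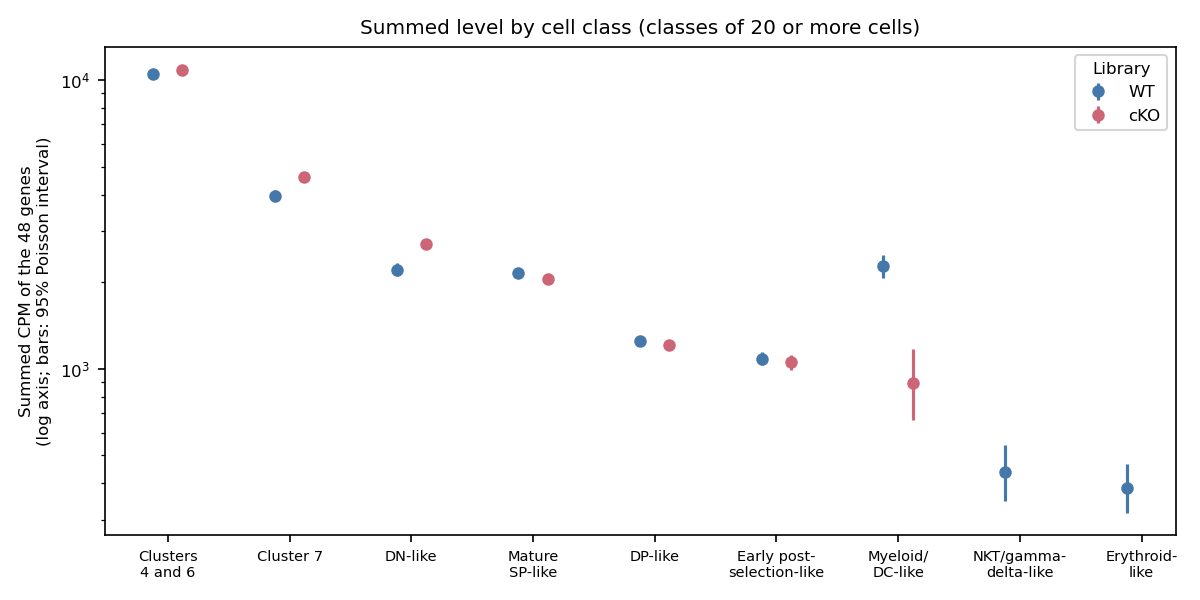
Summed CPM of the 48 genes (y axis, log scale) by class of cells (x axis) in the WT (blue) and cKO library (red), with 95% Poisson intervals, for classes with at least 20 cells in a library. Clusters 4 and 6 lie at 10449 CPM in WT and 10804 CPM in cKO, above every other class, and DP-like cells at 1248 and 1210 CPM.

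Per gene, the share of thinned cells with a UMI in clusters 4 and 6 had a median of 15.9% in WT and 13.9% in cKO (52.0% and 53.5% without thinning), up to 50.8% for *Top2a* in WT and 50.2% for *Ube2c* in cKO. In DP-like cells the median was 0.926% and 0.970%. *Mki67* was found in 24.3% of WT and 23.1% of cKO cells of clusters 4 and 6, against 1.52% and 1.56% of DP-like and 3.7% and 1.08% of mature SP-like cells. *Smc4* was found in 32.5% of WT and 25.3% of cKO DP-like cells, and *Bub3* in 14.6% and 15%. For the level of free RNA, 39 of the 48 genes had no UMI in the 44 thinned WT erythroid-like cells, which allows a share of up to 6.82% each (3 of 44 cells), with a median depth before thinning of 6090 UMIs. There *Smc4* was found in 4.55% and *Bub3* in 0% of thinned cells. Without thinning *Bub3* was found in 18.2% of these red cells and in 21.4% of WT DP-like cells, so its 0% depends on the thinning. DP-like cells had a median depth of only 1408 UMIs in WT. For *Smc4* the thinned share in DP-like cells was above that in red cells. Thinning removes more UMIs from the deeper red cells, so this comparison cannot set *Smc4* apart from free RNA. For most of the 48 the DP-like shares were under the limit that the thinned red cells allow and were not read as expression.

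Other genes of the cycle gave a frame for these values. Of the 70 other G2/M genes, 14 were higher and 5 lower in cKO by over 0.5 over all cells, with a median log2 ratio of 0.049 and extremes of -1.09 for *Ncapd3* and 1.00 for *Oip5*. Of the 56 S-phase genes, 17 were higher and 1 lower, with a median of 0.37, close to the 0.34 of the 48. Of 25 APC/C and cohesin genes, most of which code for parts present throughout the cycle, 1 (*Cdc26*) was higher and 8 were lower, with a median of -0.21. In clusters 4 and 6 the medians were -0.21 for the other G2/M genes, -0.097 for the S-phase genes and -0.18 for the APC/C and cohesin genes. The background shares of all genes given above apply to these counts too. The median log2 ratio of G2/M-like to S-like cells was 1.35 in WT and 1.20 in cKO for the other G2/M genes and -0.89 and -0.69 for the S-phase genes, which the state calls used, and 0.20 and 0.24 for the APC/C and cohesin genes, which they did not use.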

How the data were processed

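Thymus cell suspensions from 1 WT and 1 *Eif4g2* cKO mouse were captured on the DNBelab C4 system, which reads a tag near the 3′ end of each transcript. The authors made UMI counts per gene and barcode with dnbc4tools and deposited the raw counts of each library, with no normalization. Labels and headers disagree on the version of the tool, and the labels name mm10, the UCSC name of GRCm38. Of 21926 gene identifiers, 21379 were in GENCODE M21 (GRCm38). Oligo libraries were not analysed here, since no column belongs to them.

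Cells with at least 50 genes and at most 10% mitochondrial UMIs were kept, which removed 2 WT barcodes and 0 cKO barcodes. UMIs were summed per class and expressed as CPM (exact Poisson intervals), with exact conditional binomial intervals for ratios and Clopper-Pearson intervals for shares, all at 95%. Ratios were counted past 0.5 (log2) among genes that reached 50 UMIs in the libraries together. Clustering (scanpy 1.11.5, Leiden at resolution 1.0, 2000 variable genes, 30 components, 20 neighbours) was run without the 48 genes, the state lists, histones and *Eif4g2*, with no integration and no doublet removal. A cluster was named from at least 3 raised markers, leading genes that did not hold more markers of some other list, and at least 1 of its own markers among its 10 leading genes. Cluster names are rebuilt names and need not match those of the study. The calculations were tested on simulated counts.

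The members and lists were chosen with earlier results of these data known. Named genes were the 5 highest and 5 lowest by ratio of cKO to WT and by ratio of G2/M-like to S-like cells, the 5 with the smallest ratio of G2/M-like to non-cycling cells, and a fixed list of 14, and others are given as ranges, counts or ratios beside them. Alternatives changed the cell filter, scaling, minimum of UMIs, state calls, thinning, clustering and motif strand.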

Additional observations from a re-analysis of the deposited data

How the results depend on the processing

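Of 141 comparisons of a value with its alternative, 89 stayed within the counting interval (or within 1.5 times, for counts). The median ratio of the 48 genes over all cells was 0.4335 without cells above 10000 UMIs, 0.4904 by the mean of counts per 10000 over cells and 0.727 by median-of-ratios size factors, the last with 36 genes higher by over 0.5, and under all 3, as without cluster 7, 0 were lower. Over all genes the medians under these 3 were -0.27, -0.24 and 0.059, and the shares of all genes past 0.5 were not counted. Calls at 2 UMIs gave shares of G2/M-like 27.91% (WT) and 31.19% (cKO), S-like 30.02% and 39.86%, calls at 5 UMIs G2/M-like 10.66% (WT) and 16.06% (cKO), S-like 8.583% and 16.7%, no thinning G2/M-like 27.48% (WT) and 31.65% (cKO), S-like 30.36% and 39.58%, and no cells above 10000 UMIs G2/M-like 16.72% (WT) and 20.97% (cKO), S-like 15.38% and 23.26%. Leaving out *Hmgb2*, chosen after seeing the data, gave G2/M-like 14.01% (WT) and 16.54% (cKO), S-like 16.88% and 27.87%, and with 5 UMIs as well G2/M-like 8.733% (WT) and 11.88% (cKO), S-like 8.666% and 18.22%. The median ratio of cKO to WT in G2/M-like cells was 0.103 at 2 UMIs, -0.1488 at 5 UMIs and 0.1461 without thinning, so its sign depends on the calls. G2/M-like to S-like cells gave medians of 1.438 (cKO, no thinning) and 1.52 and 1.421 (WT and cKO, no cells above 10000 UMIs), and G2/M-like to non-cycling cells 4.062 and 3.402 (no *Hmgb2*, 5 UMIs). At resolution 0.5 the sums were 2004 CPM (DN-like, WT), 1280 (DP-like, cKO) and 988.4 (early post-selection-like, cKO), at 1.6 1162 (DP-like, cKO), 2197 and 2487 (mature SP-like), and without cells above 10000 UMIs 1357 and 1473 (DN-like) and 1784 and 1347 (mature SP-like, WT and cKO). Without thinning the median share of cells with a UMI was 9.947% and 17.58%. The APC/C and cohesin median was -0.1147 without cells above 10000 UMIs, and 1 strand alone gave the CHR in 51.16% and CCAAT in 58.14% of windows. The causes were not tested. Depth limits the genes with few UMIs in non-cycling cells. No paired analysis was possible because each genotype had 1 library.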

Other observations

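Among the DP-like clusters, cluster 2, led by *Tubb2b*, *Slc7a11* and *Cd8b1*, differed between the libraries in the 48 genes. At least 5 of their UMIs per 1000 were found in 19 of 141 WT cells (13.5%, 8.31–20.2) and in 3 of 244 cKO cells (1.23%, 0.254–3.55). The summed level was 2497 CPM (interval 2327–2676) in WT and 1231 CPM (interval 1149–1317) in cKO, and median depths were 2107 and 2586 UMIs per cell. This cluster was picked out after its values were seen, and it was not the only DP-like cluster that differed. Cluster 0 went the other way, at 1171 CPM (interval 1132–1210) in WT and 1798 CPM (interval 1601–2012) in cKO. Cluster 11 went the same way, at 1394 CPM (interval 1229–1574) in WT and 1163 CPM (interval 1121–1206) in cKO. In cluster 3 the intervals of the libraries overlapped. In myeloid/DC-like cells the sum was 2262 CPM (interval 2060.4–2477) in 63 WT cells and 891 CPM (interval 665–1168) in 25 cKO cells, and 25 of the 48 genes had no UMI in the latter. NKT/γδ-like cells of the WT library had 437 CPM (interval 348–542) in 52 cells, about as low as the erythroid-like cells (387 CPM (interval 316–468)).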
